A study of Mus musculus with 9 samples.

Results

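The genes described here carry fatty acids from circulating lipoproteins into the cell and prepare them for use: Lpl, Cd36, Fabp4, Fabp5, Slc27a1, Slc27a4, Acsl1, Acsl3, Acsl4 and Acsl5. The set was chosen by function with earlier results of these data known, and all 10 were matched by symbol among the 19094 genes listed in at least 1 sample. RNA-seq was performed on 3T3-L1 cells, a mouse line of fibroblast-like preadipocytes that stores lipid once induced, with 3 samples at each of 3 stages and no further genotype or treatment group. Day 0 samples were confluent preadipocytes before induction. Day 4 samples had received induction medium with dexamethasone, IBMX and insulin for 2 days and then insulin-containing maintenance medium for 2 days, and day 8 samples had stayed 4 days longer in maintenance medium. In the following, the early phase compares day 4 with day 0, the late phase day 8 with day 4, and the whole process day 8 with day 0. The cells came from 1 line in culture. The study's methods describe cells pooled at each stage, and samples made by mixing RNA of different stages. Nothing states that the samples of a stage came from separate cultures, so the p-values measure the spread between these samples, which may be technical.

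In fat tissue, fatty acids reach the adipocyte mostly inside lipoprotein triglycerides. Lipoprotein lipase, encoded by Lpl, is made by the adipocyte and frees them in the capillary. The membrane protein CD36 and the transport proteins of the SLC27 family help them across the plasma membrane, small cytosolic proteins of the FABP family bind them inside the cell, and long-chain acyl-CoA synthetases of the ACSL family join them to coenzyme A, the step that commits them to triglyceride synthesis, membrane lipids or oxidation.

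The depth was 18216114 to 20452144 expected counts per sample, with a median of 20182731, and 3 counts in a sample, the detection floor used here, corresponded to 0.147 to 0.165 CPM, counts scaled to the library's total. Every member was counted in every sample and passed the filter on low counts, which left 13154 genes for testing. Levels are given as FPKM, fragments scaled to transcript length and to the depth of the sample, the scale on which genes of different length can be compared. Changes are log2 fold changes of counts with their standard error (SE) from edgeR's quasi-likelihood test, adjusted over all tested genes, and calls required both an adjusted p under 0.05 and a change of over 2-fold. In bulk samples, fewer cells that express a gene and less RNA of it per cell cannot be told apart.

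Most of the change in these genes fell between day 0 and day 4. In the early phase 6 of the 10 members were called higher (Lpl, Cd36, Fabp4, Fabp5, Slc27a1 and Acsl1) and 0 lower, where 9.77% of all tested genes were called higher and 7.98% lower. By adjusted p alone, which 69.2% of all tested genes passed, Slc27a4 also rose and Acsl3, Acsl4 and Acsl5 fell. The median early change of the members was 2.38 on the log2 scale, against 0.02 over all tested genes. In the late phase 0 members were called in either direction by edgeR's quasi-likelihood test, while 4.24% of all tested genes were called higher and 2.81% lower. At an unadjusted p under 0.05 the same test gave 4 members higher and 2 lower, DESeq2 gave 5 and 2, edgeR's exact test 4 and 2, and limma 3 and 2, again with 0 called. By adjusted p alone, which 45.3% of all tested genes passed, Lpl, Cd36, Fabp4 and Acsl3 rose and Slc27a1 and Acsl5 fell after day 4, with a median over the members of 0.12 against -0.01 over all genes. Over the whole process 5 members were called higher and 0 lower, against 10.3% and 7.70% of all tested genes, and 7 were higher and 2 lower by adjusted p, which 71.0% of all tested genes passed. Acsl3 was the member that did not pass over the whole process.

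Together the 10 genes took up 0.0588% ± 0.0014 (SD, n = 3) of the summed FPKM at day 0, then 1.4% ± 0.207 at day 4, and finally 1.71% ± 0.0874 at day 8. Their order by level was rearranged between day 0 and day 4. At day 0 Lpl led with 117 FPKM and Fabp5 followed with 34.1 FPKM. Acsl5 and Slc27a1 came next with overlapping samples, then Acsl4, and then Acsl3, Slc27a4, Fabp4 and Acsl1, whose samples overlapped from each neighbour to the next, while Cd36 stood last at 0.113 FPKM. At day 4 the order was Fabp4, Lpl, Acsl1, Fabp5, Cd36, Slc27a1, Slc27a4, Acsl5, Acsl4 and Acsl3, with the samples of every neighbouring pair apart. The same order held at day 8 down to Acsl5, after which Acsl3 and Acsl4 overlapped.

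**Figure D1:**
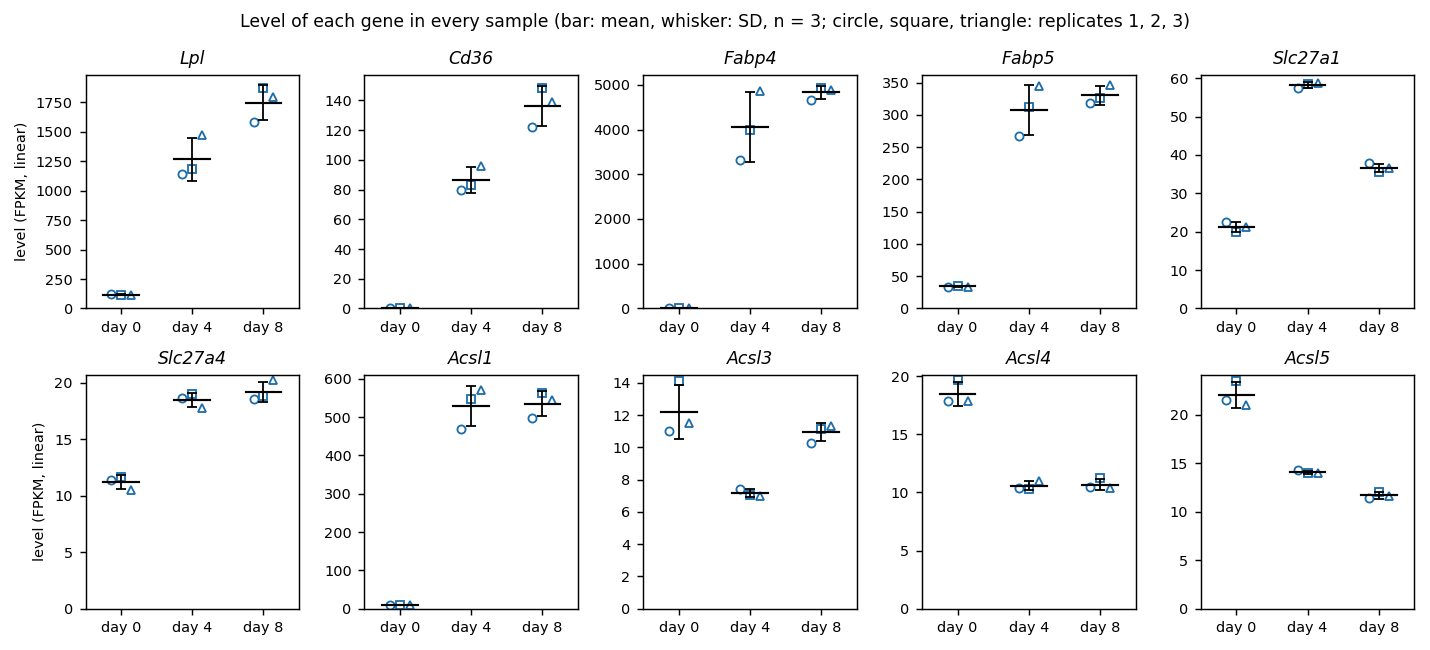
Level of each gene in FPKM (linear axis from 0, scaled per gene) in the 9 samples by day; circles, squares and triangles are replicates 1, 2 and 3, horizontal bars are means and whiskers SDs (n = 3). Lpl, Cd36, Fabp4, Fabp5 and Acsl1 sit far below their later levels at day 0, Slc27a1 peaks at day 4, Acsl3 is lowest at day 4, and Acsl4 and Acsl5 are highest at day 0.

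Lpl (gene ID 16956), the lipase at the start of the route, was the most abundant of these transcripts before induction. Its level was 121, 114 and 116 FPKM in the 3 samples at day 0, 1139, 1185 and 1475 FPKM at day 4, and 1583, 1871 and 1792 FPKM at day 8. No sample of one day overlapped those of another, and in rank among all genes Lpl moved from between 529 and 603 at day 0 to between 14 and 18 at day 8. The early change was 3.5 (SE 0.09, adjusted p = 1.5e-14), the late change 0.51 (SE 0.08, adjusted p = 0.00011), and the whole process came to 4.01 (SE 0.09, adjusted p = 4.9e-15).

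The genes that act on lipoprotein lipase or take up its substrate particles moved in a mixed way. Of 17 listed genes 13 were tested, and in the early phase 5 were called higher (Angptl4, Angptl8, Apoc2, Apoc3 and Apoe) and 0 lower, with a median of 0.75, or 9 higher and 3 lower by adjusted p. Apoc2, Apoc3 and Angptl8, almost uncounted at day 0, passed the filter on low counts only through later days. Their early calls could therefore only be higher, and they add no independent weight to the count. In the late phase Angptl8 and Gpihbp1 were called higher and Apoc3 lower, and over the whole process 6 were called higher, the early 5 and Gpihbp1, and 0 lower. Beside this and the later lists, 9.77% of all tested genes were called higher and 7.98% lower early. The shares were 4.24% and 2.81% late, and 10.3% and 7.70% over the whole process. By adjusted p alone 69.2%, 45.3% and 71.0% of all tested genes passed in the early phase, late phase and whole process. Angptl4, a secreted inhibitor of the lipase, was at 11.8 FPKM ± 0.395 at day 0, then 101 FPKM ± 2.92 at day 4, and finally 139 FPKM ± 3.90 at day 8 (SD, n = 3), an early change of 3.16 (SE 0.06, adjusted p = 1.1e-16). Apoe, a ligand of lipoprotein receptors, rose from 2.24 FPKM ± 0.261 to 22.6 FPKM ± 3.98 and 39.7 FPKM ± 2.90.

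The lipase's activator Apoc2 and Apoc3, an inhibitor, had 0 counts in every day 0 sample, and 42 and 150 counts over the 3 samples of day 4. Both stayed low, at 1.03 FPKM ± 0.435 and 5.08 FPKM ± 1.39 at day 4. Angptl8 had 2 counts in all at day 0, then 46 at day 4, and finally 111 at day 8, a ratio of 22.6 at day 4 with a 95% counting interval (exact binomial) of 5.90 to 192. Gpihbp1, the endothelial anchor of the lipase, had between 2 and 22 counts in each sample, and its level was 0.313 FPKM ± 0.195 at day 4 and 1.16 FPKM ± 0.263 at day 8. Lmf1, a folding factor of the lipase, was at 16.2 FPKM ± 0.833, 18.7 FPKM ± 0.388 and 19.7 FPKM ± 1.11, an early rise of 0.27 (SE 0.06, adjusted p = 0.00159). Among the receptors Vldlr rose early by 0.99 (SE 0.07, adjusted p = 1.9e-09), from 12.3 to 23.2 FPKM, and Lrp1 fell by 0.90 (SE 0.09, adjusted p = 1.2e-07), from 148 to 75.7 FPKM, neither passing 2-fold.

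Cd36 (gene ID 12491), a scavenger receptor that binds long-chain fatty acids at the cell surface, went from near the detection floor to a well-expressed gene. It was at 0.16, 0.05 and 0.13 FPKM in the day 0 samples, from 12, 3 and 9 counts. It reached 80.0, 83.0 and 96.2 FPKM at day 4 and 122, 149 and 139 FPKM at day 8. The 3 days were fully apart, and the day 0 sample with the lowest value held no more counts than the floor. Cd36 passed the filter on low counts only through the later days, so its early call could only be higher. The 24 counts summed over day 0 and 18069 over day 4 gave a ratio of 738 per total counts, with a 95% counting interval (exact binomial) of 496 to 1153, and the ratio of day 8 to day 0 was 1172 (788 to 1829.5). These intervals cover counting error only. The fitted early change was 9.57 (SE 0.17, adjusted p = 1.1e-16), and it ranged from 6.29 to 9.95 over the alternatives, the lowest with limma on log2(FPKM + 1). A fitted fold against so low a level depends on the count added before the log. The late change of 0.71 (SE 0.08, adjusted p = 2e-06) rests on at least 5617 counts in each sample.

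The promoter window of Cd36 is shown for comparison with the Acsl genes. Cd36 had the largest fitted early change of the members in edgeR's quasi-likelihood test. With limma on log2(FPKM + 1) that of Fabp4 was larger, 8.58 against 6.29. The window was taken from RefSeq's table for the mouse build GRCm38.p6, which held windows for 7 of the 10 members (Cd36, Slc27a1, Slc27a4, Acsl1, Acsl3, Acsl4 and Acsl5). The 250 bases before the annotated start lie at chr5:17835897-17836146 on the minus strand. Capitals mark matches on either strand to CCAAT, the letters of a CCAAT box, or to GGGCGG, the letters of a GC box.

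Cd36 promoter: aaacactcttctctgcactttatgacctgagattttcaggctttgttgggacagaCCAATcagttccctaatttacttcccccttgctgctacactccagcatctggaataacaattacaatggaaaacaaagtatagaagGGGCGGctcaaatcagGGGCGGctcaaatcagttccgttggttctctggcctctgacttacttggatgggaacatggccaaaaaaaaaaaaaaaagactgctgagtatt

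The window held 1 CCAAT match that began 195 bases before the start, and 2 GGGCGG matches at 109 and 93 bases. Among all 32851 windows in the table, 33.8% held CCAAT and 32.7% held GGGCGG on either strand. Its GC content was 43.2%, against a median of 52.4% over all windows, and its ratio of observed to expected CpG was 0.258 against 0.373. The letters AGGTCANAGGTCA (the direct repeat read by PPAR and RXR), TTNNGCAA (a C/EBP form) and TATAAA were found in no member's window, and they occurred in 0.0335%, 9.56% and 12.4% of all windows. A match is a description of the letters, and these windows leave out everything farther away.

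Slc27a1 and Slc27a4 encode FATP1 and FATP4, transport proteins that also carry acyl-CoA synthetase activity. The first of them rose and then fell. Slc27a1 (gene ID 26457) was at 22.4, 19.8 and 21.2 FPKM at day 0, at 57.4, 58.6 and 58.8 FPKM at day 4, and at 37.8, 35.7 and 36.5 FPKM at day 8. The day 4 samples were the highest and day 8 lay between, with no overlap. It rose by 1.53 (SE 0.05, adjusted p = 2.8e-13) in the early phase and then fell by 0.62 (SE 0.05, adjusted p = 4.3e-08), and the whole process left it higher by 0.90 (SE 0.05, adjusted p = 1.9e-10), less than 2-fold.

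Slc27a4 (gene ID 26569) was at 11.4, 11.7 and 10.5 FPKM at day 0, at 18.6, 19.0 and 17.8 FPKM at day 4, and at 18.5, 18.8 and 20.2 FPKM at day 8. Day 0 was below all later samples, and day 4 and day 8 overlapped. The early change was 0.79 (SE 0.06, adjusted p = 4.1e-09), and the late difference of 0.10 (SE 0.06, adjusted p = 0.159) did not pass.

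Of the pair's summed FPKM, Slc27a1 made up 65.4% ± 2.11 at day 0, then 75.9% ± 0.738 at day 4, and finally 65.7% ± 1.38 at day 8 (SD, n = 3). The day 4 samples stood above both other days, whose samples overlapped. With 3 samples against 3 the exact two-sided permutation test cannot go below p = 0.1, the value it gave for day 4 against each other day (0.129 after adjustment over 18 comparisons of family shares), and it gave p = 0.8 for day 0 against day 8 (adjusted 0.847). Over all 6 Slc27 genes the share of Slc27a1 was 57.8%, 73.7% and 62.1%. That of Slc27a4 was 30.6%, 23.4% and 32.5%. Outside the pair, Slc27a3 was at 4.14 FPKM ± 0.418, 2.26 FPKM ± 0.155 and 3.17 FPKM ± 0.290. Slc27a2, Slc27a5 and Slc27a6 stayed at or below 0.150 FPKM in every sample.

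Among 11 other genes of fatty acid transport and CD36 handling 7 were tested. In the early phase Cav1 and Scarb1 were called higher and 0 lower, with a median of 0.13, and in the late phase 0 were called by edgeR's quasi-likelihood test, although 3 were higher and 3 lower by adjusted p, and as many at an unadjusted p under 0.05. Both genes were also called over the whole process. Cav1, the main caveolar coat protein, was at 216 FPKM ± 16.3, 639 FPKM ± 18.2 and 480.2 FPKM ± 32.3, rising by 1.62 (SE 0.06, adjusted p = 1.2e-12) and then falling by 0.36 (SE 0.06, adjusted p = 0.00015). Scarb1, a receptor for high-density lipoprotein, increased from 24.8 FPKM ± 2.73 to 54.5 FPKM ± 3.91 and 70.1 FPKM ± 3.34. Got2, also described as a plasma membrane fatty acid binding protein, went from 144 FPKM ± 1.99 to 147 FPKM ± 2.79 and 117 FPKM ± 1.86.

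Fabp4 (gene ID 11770), the adipocyte fatty acid binding protein, became one of the most abundant transcripts of the cells. It was at 9.08, 11.3 and 8.21 FPKM at day 0, at 3314, 3979 and 4863 FPKM at day 4, and at 4654, 4939 and 4891 FPKM at day 8. Day 0 was far below the rest, while the highest day 4 sample exceeded the lowest day 8 sample. By rank it moved from between 6084 and 7173 at day 0 to 2 or 3 at day 4 and 1 or 2 at day 8. The early change was 8.81 (SE 0.15, adjusted p = 9.1e-17).

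The late rise of Fabp4, 0.30 (SE 0.10, adjusted p = 0.0194), was small and not stable. It missed the threshold with DESeq2 (adjusted p = 0.0768), with limma on log2(FPKM + 1) (0.104) and on log2(FPKM + 0.1) (0.11), without day 4 replicate 1 (0.17, adjusted p = 0.075) and without day 8 replicate 2 (0.28, adjusted p = 0.0662). Over the alternatives the late change ranged from 0.17 to 0.45.

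Fabp5 (gene ID 16592), the epidermal form that many cell types express, rose less. Its level was 33.0, 35.5 and 33.7 FPKM at day 0, 267, 313 and 344 FPKM at day 4, and 318, 326 and 347 FPKM at day 8. Day 0 was below all later samples and the later days overlapped. The early change was 3.24 (SE 0.08, adjusted p = 1.1e-14). The late difference was 0.15 (SE 0.07, adjusted p = 0.103). It passed without day 4 replicate 3 (0.23, adjusted p = 0.00753) and with a replicate block (0.15, adjusted p = 0.0319), and was 0.05 without day 4 replicate 1. Over the alternatives it ranged from 0.05 to 0.23. Reads of Fabp5 may be shared with near copies, as 5.48% of the 50-base stretches of its transcripts in GENCODE vM21 also occur in other genes, Fabp5l2 among them, while none of those of Fabp4 do.

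The order of the pair was exchanged between day 0 and day 4. Fabp4 made up 21.7% ± 2.26 of their summed FPKM at day 0, then 92.9% ± 0.448 at day 4, and finally 93.6% ± 0.215 at day 8 (SD, n = 3). The ratio of Fabp4 to Fabp5 was 0.279 ± 0.0370, then 13.1 ± 0.915, then 14.6 ± 0.523. Exact permutation tests of the share gave p = 0.1, the smallest possible, for day 0 against either later day (adjusted 0.129), and p = 0.2 for day 4 against day 8 (adjusted 0.24).

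The other binding proteins of this class were almost unexpressed. Of 13 listed fatty acid and retinoid binding proteins 2 were tested, and edgeR's quasi-likelihood test called 0 of them in any comparison. At an unadjusted p under 0.05 there were 0 early, 1 lower late and 1 lower over the whole process. Fabp3, the heart form, did not exceed 0.390 FPKM in any sample. Fabp4 and Fabp5 lie close together on chromosome 3, and in RefSeq's annotation of GRCm38.p6 the genes run in the order Fabp5, Pmp2, Fabp9, Fabp4 and Fabp12. The 3 genes between and beside them showed no comparable level. Pmp2 had means of 0.0400, 0.0367 and 0.0133 FPKM, Fabp9 of 0, 0.05 and 0 FPKM, and Fabp12 of 0, 0.0267 and 0.0800 FPKM. The flanking gene Impa1 was at 7.38, 5.57 and 5.83 FPKM.

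Of the 4 synthetases, Acsl1 rose and the others fell in the early phase. Acsl1 (gene ID 14081), the form that predominates in fat tissue, was at 9.60, 9.06 and 9.11 FPKM at day 0, at 469, 546 and 570.4 FPKM at day 4, and at 499, 562 and 544 FPKM at day 8. The day 0 samples were far below all others, and day 4 and day 8 overlapped. The early change was 5.90 (SE 0.09, adjusted p = 1.9e-17), and the late difference of 0.06 (SE 0.07, adjusted p = 0.47) did not pass. By rank it moved from between 6628 and 6879 at day 0 to between 114 and 137 at day 4.

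Acsl3 (gene ID 74205), a form found on the endoplasmic reticulum and lipid droplets, dipped at day 4 and returned. It was at 11, 14.1 and 11.5 FPKM at day 0, at 7.44, 7.02 and 7.0 FPKM at day 4, and at 10.3, 11.2 and 11.3 FPKM at day 8. All day 4 samples were below those of both other days, which overlapped. It fell by 0.71 (SE 0.08, adjusted p = 1.2e-06) early and rose by 0.67 (SE 0.08, adjusted p = 7.2e-06) late, and day 8 differed from day 0 by -0.04 (SE 0.08, adjusted p = 0.642). Its transcripts share 3.59% of their 50-base stretches with Utp14b.

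Acsl4 (gene ID 50790), which prefers arachidonic acid, was at 17.9, 19.6 and 17.8 FPKM at day 0, at 10.4, 10.3 and 11 FPKM at day 4, and at 10.5, 11.2 and 10.4 FPKM at day 8. Day 0 was above all later samples, and the later days overlapped. It fell by 0.74 (SE 0.05, adjusted p = 2.1e-09) in the early phase, and the late difference was 0.06 (SE 0.05, adjusted p = 0.412).

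Acsl5 (gene ID 433256), a form of mitochondria and endoplasmic reticulum, decreased in both phases. It was at 21.5, 23.5 and 21.0 FPKM at day 0, at 14.3, 14.0 and 14.0 FPKM at day 4, and at 11.4, 12.1 and 11.7 FPKM at day 8. The 3 days did not overlap, with day 0 highest and day 8 lowest. It fell by 0.58 (SE 0.05, adjusted p = 9.4e-08) early and by 0.22 (SE 0.06, adjusted p = 0.00472) late, and over the whole process by 0.80 (SE 0.06, adjusted p = 2e-09), always under 2-fold.

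Acsl1 went from the smallest share of the synthetases' summed FPKM to nearly all of it. Its share was 15% ± 1.2 at day 0, then 94.3% ± 0.602 at day 4, and finally 94.1% ± 0.160 at day 8 (SD, n = 3). At day 0 Acsl5 held 35.5% ± 0.294, Acsl4 29.8% ± 0.208 and Acsl3 19.7% ± 1.51, and at day 8 these were 2.06% ± 0.0709, 1.88% ± 0.0876 and 1.92% ± 0.0497. The total of the 4 genes was 61.9 FPKM at day 0, then 560.3 FPKM at day 4, and finally 568 FPKM at day 8. Exact permutation tests of the share of Acsl1 gave p = 0.1 for day 0 against each later day (adjusted 0.129) and p = 0.6 for day 4 against day 8 (adjusted 0.675). Acsl6, the remaining family member, was listed at no more than 0.0800 FPKM.

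**Figure D2:**
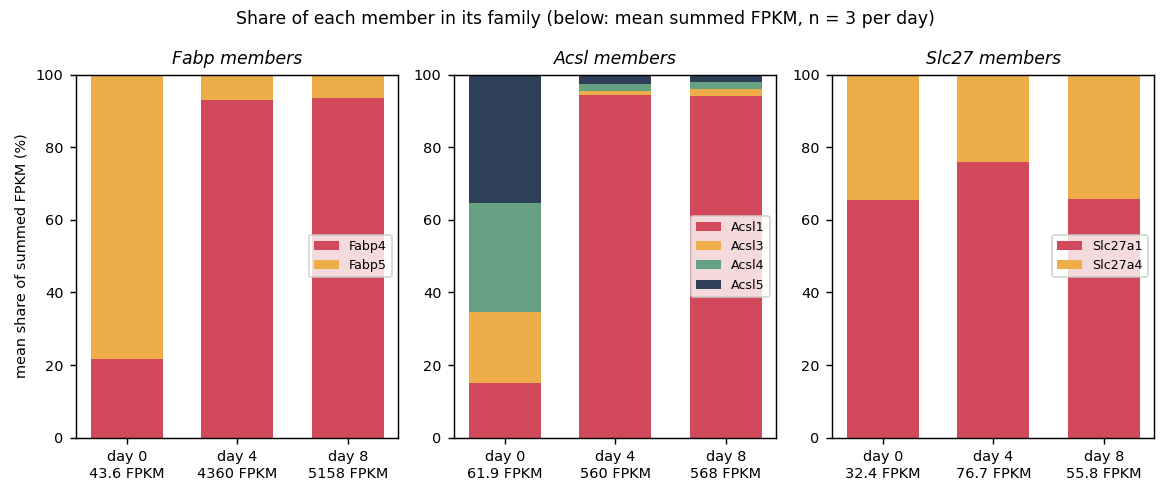
Stacked bars of the mean share (%) of each member in the summed FPKM of the Fabp, Acsl and Slc27 members by day (n = 3), with the mean summed FPKM under each bar. Fabp4 goes from 21.7% to 92.9% and Acsl1 from 15% to 94.3% between day 0 and day 4, and the share of Slc27a1 is 65.4%, 75.9% and 65.7%.

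The synthetase promoters are shown for the gene that rose most in the family and for one that fell. Acsl1 has a window at each of 2 annotated starts, at chr8:46470787-46471036 and chr8:46490716-46490965 on the plus strand, and that of Acsl4 lies at chrX:142390536-142390785 on the minus strand, all in GRCm38.p6. Capitals again mark matches to CCAAT or to GGGCGG on either strand.

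Acsl1 promoter, upstream start: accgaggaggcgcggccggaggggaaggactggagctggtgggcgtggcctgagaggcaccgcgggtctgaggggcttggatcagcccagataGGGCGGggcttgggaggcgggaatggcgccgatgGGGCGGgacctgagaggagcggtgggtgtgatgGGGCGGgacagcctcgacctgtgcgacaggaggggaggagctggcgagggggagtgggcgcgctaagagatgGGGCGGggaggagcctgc

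Acsl1 promoter, downstream start: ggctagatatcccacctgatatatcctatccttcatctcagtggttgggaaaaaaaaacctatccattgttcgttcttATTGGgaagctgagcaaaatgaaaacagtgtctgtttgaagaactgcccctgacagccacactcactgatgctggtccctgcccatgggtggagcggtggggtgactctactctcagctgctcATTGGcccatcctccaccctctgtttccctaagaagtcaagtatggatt

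Acsl4 promoter: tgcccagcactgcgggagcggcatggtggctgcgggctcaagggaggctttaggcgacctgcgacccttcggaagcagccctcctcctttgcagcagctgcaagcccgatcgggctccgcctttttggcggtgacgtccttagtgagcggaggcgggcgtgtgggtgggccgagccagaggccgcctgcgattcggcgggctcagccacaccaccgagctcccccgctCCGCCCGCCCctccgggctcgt

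The upstream window of Acsl1 had a GC content of 72% and a CpG ratio of 0.779, with 4 GGGCGG matches at 157, 123, 90 and 18 bases before the start. The downstream window had 48.4% GC, a CpG ratio of 0.138 and 2 CCAAT matches on the opposite strand at 172 and 49 bases. Acsl4 had 70.8% GC, a CpG ratio of 0.798 and 2 overlapping GGGCGG matches on the opposite strand at 22 and 18 bases. The window of Acsl3, which fell early like Acsl4, was at 75.6% GC and a ratio of 0.836, and that of Acsl5, which also fell, was at 52.8% GC and a ratio of 0.415 with 1 CCAAT and no GGGCGG match. The counts were summed per gene, so that the starts of Acsl1 were not told apart.

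Other enzymes and binding proteins at the same step were grouped by function. Of 7 acyl-CoA binding proteins 6 were tested, and Dbi, Scp2 and Acbd4 were called higher early and over the whole process, with 0 lower and medians of 0.68 and 1.11. In the late phase edgeR called 0, with 3 higher by adjusted p and 4 at an unadjusted p under 0.05. Dbi, the acyl-CoA binding protein itself, rose by 2.24 (SE 0.06, adjusted p = 4.2e-14), from 68.5 FPKM ± 3.5 to 309.6 FPKM ± 29.5, and was at 304 FPKM ± 6.11 at day 8. Scp2, a peroxisomal lipid carrier, was at 30.2 FPKM ± 0.695, 99.2 FPKM ± 13.1 and 125 FPKM ± 4.56.

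Of 14 other acyl-CoA synthetases 7 were tested. Acss3 and Acsm5 were called higher early, both under 1 FPKM, and Acss2 and Acsf2 joined them over the whole process, with 0 lower in either. At day 0 Acsm5 had 0 counts and Acss3 a mean of 0.0300 FPKM. Both passed the filter on low counts only through later days, so neither could have been called lower early. In the late phase edgeR called 0, with 2 higher by adjusted p, and 3 higher and 1 lower at an unadjusted p under 0.05. Acss2, which activates acetate, was at 6.16 FPKM ± 0.582, 10.5 FPKM ± 0.811 and 19.6 FPKM ± 1.61, a whole-process change of 1.78 (SE 0.09, adjusted p = 1.8e-11).

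Of 14 listed thioesterases, which remove coenzyme A from acyl-CoA, 10 were tested, with a median early change of -0.08. In the early phase 0 were called higher and 1 lower, in the late phase 1 higher and 1 lower, and over the whole process 0 higher and 2 lower. By adjusted p alone 2 were higher and 4 lower early, 3 and 3 late, and 2 and 3 over the whole process. Of all tested genes 69.2%, 45.3% and 71.0% passed in these comparisons, so the thioesterases did not stand out in the early phase or whole process. Acot2, the mitochondrial form, fell early by 1.12 (SE 0.09, adjusted p = 1.1e-08) and rose late by 1.06 (SE 0.09, adjusted p = 8.7e-08), at 26.7 FPKM ± 2.47, 11.7 FPKM ± 0.938 and 23.6 FPKM ± 2.56. Acot1 was called lower over the whole process, at 4.37 FPKM ± 0.335, 2.74 FPKM ± 0.170 and 1.61 FPKM ± 0.235, and Acot6 was called lower late and over the whole process at under 1 FPKM. These thioesterases are close paralogs, and their counts may have been split between them.

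**Figure D3:**
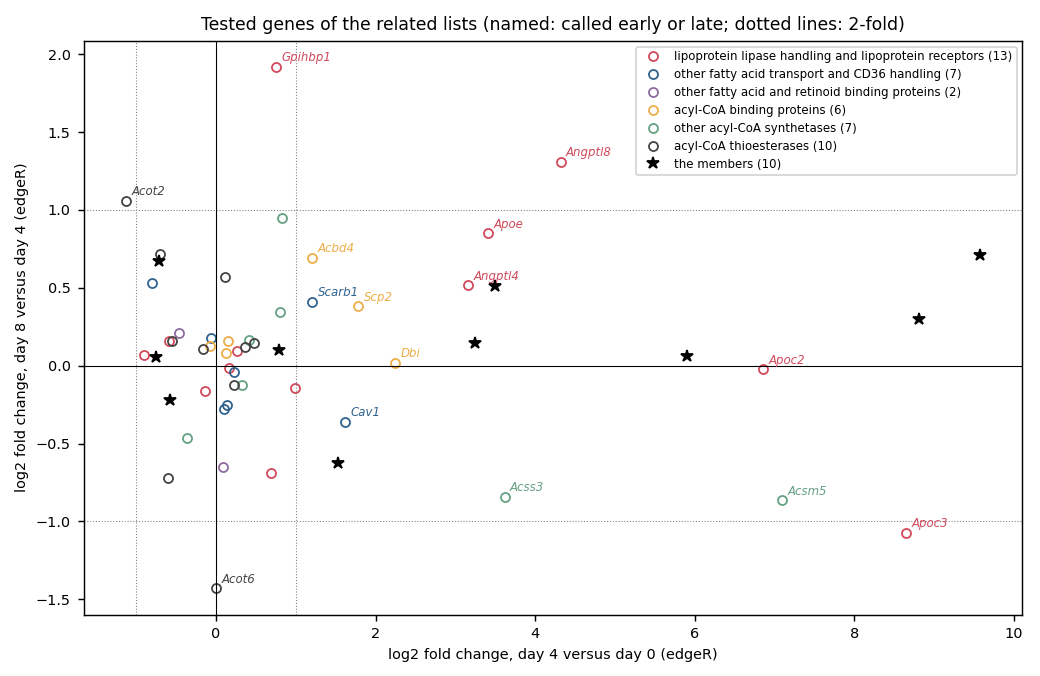
Log2 fold change of day 4 versus day 0 (horizontal) and of day 8 versus day 4 (vertical) for the tested genes of 6 related lists (open circles, coloured by list, with numbers of genes) and the 10 members (stars); dotted lines mark 2-fold and names are given for list genes called early or late. The stars of Lpl, Cd36, Fabp4, Fabp5 and Acsl1 lie beyond 3 on the horizontal axis, and the fitted values of Apoc2, Apoc3 and Acsm5 rest on day 0 counts of 0.

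The early and late changes, taken with their signs, differed for every member. The contrast of the early minus the late change, in which both share the day 4 samples, was positive for 7 members and negative for Acsl3, Acsl4 and Acsl5, and all 10 passed the adjusted threshold, as did 56.6% of all tested genes. It was 8.86 for Cd36, 8.51 for Fabp4, 5.84 for Acsl1, 3.10 for Fabp5 and 2.99 for Lpl. Slc27a1, with 2.15 (adjusted p = 4e-12), and Acsl3, with -1.39 (adjusted p = 7.3e-07), were the members whose early and late changes passed in opposite directions, and those of Acsl3 were close in size. The contrast of Acsl5 was the smallest, at -0.36 (SE 0.10, adjusted p = 0.00523).

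**Figure D4:**
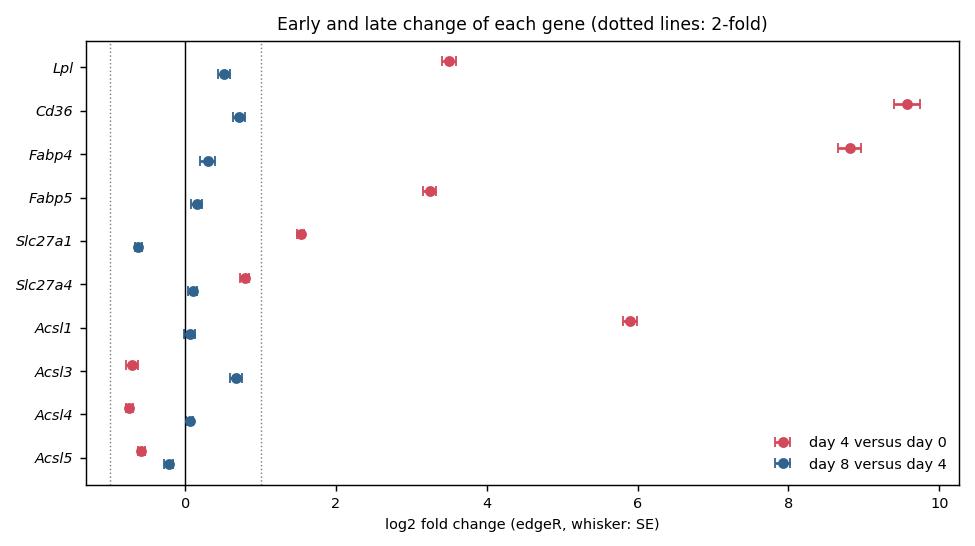
Log2 fold change of each gene in the early (red) and late (blue) phase; points are edgeR estimates, whiskers standard errors and dotted lines 2-fold. Early values run from -0.74 for Acsl4 to 9.57 for Cd36, and all late values lie between -0.62 and 0.71.

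Markers of the cells changed over the same days. All 8 adipocyte markers were called higher in the early phase, and their summed FPKM was between 18.7 and 19.7 at day 0, 1485, 1876 and 2147 in the day 4 samples, and between 2575 and 2869 at day 8. The most abundant was Pparg at day 0, Cidec in the day 4 samples, and Cidec or Adipoq at day 8. Lep was at 0 in every day 0 sample and was tested only through its later levels, so its early call could only be higher. The 7 preadipocyte or fibroblast markers, led by Col1a1 in every sample, summed to between 3806 and 4054 FPKM at day 0, between 1858 and 2041 at day 4 and between 3286 and 3336 at day 8, with none at 0. Dlk1, Fn1 and Ly6a were called lower early, and Fn1, Ly6a and Cd34 over the whole process. In the late phase, where 0 members were called, Dlk1 was called higher, as were the adipocyte markers Cfd, Lep and Slc2a4. The most abundant, Col1a1, had means of 1539.7, 1299 and 2269.7 FPKM, while Ly6a was at 167, 42.7 and 38.8 FPKM, Fn1 at 1145, 191 and 309 FPKM and Pdgfra at 59.6, 102 and 65.7 FPKM.

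Within day 4, the samples that were low and high in the marker sum were also low and high in several members. In FPKM, Lpl, Cd36, Fabp4, Fabp5, Slc27a1 and Acsl1 were all lowest in replicate 1, which had the lowest adipocyte sum, and highest in replicate 3, which had the highest, although the day 4 values of Slc27a1 differed little. Acsl4 was also highest in replicate 3. Acsl3 and Acsl5 were instead highest in replicate 1, and Slc27a4 and Acsl3 lowest in replicate 3. At day 8, Lpl, Cd36, Fabp4, Fabp5, Slc27a4, Acsl1, Acsl3 and Acsl5 were lowest in replicate 1, again the lowest in the adipocyte sum. The adipocyte sum at day 8 was highest in replicate 3 (2869, against 2815 in replicate 2), as were Fabp5, Slc27a4 and Acsl3. Lpl, Cd36, Fabp4, Acsl1, Acsl4 and Acsl5 were highest in replicate 2, and Slc27a1 in replicate 1. At day 0 the adipocyte sum was lowest in replicate 1 (18.7) and highest in replicate 3 (19.7), and the members did not follow it. Lpl, Cd36, Slc27a1 and Acsl1 were highest in replicate 1, where Fabp5 and Acsl3 were lowest. No member was highest in replicate 3, and Fabp4, Slc27a4, Acsl4 and Acsl5 were lowest there. The part of the share of differentiated cells in these results was not tested.

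Other cell types that express some of the members left few transcripts. The 7 macrophage markers summed to between 5.0 and 8.98 FPKM, with Cd14 the most abundant and Adgre1, Itgam and Ptprc at or below 0.0400 FPKM. Lyz2 reached 2.33 FPKM and Cd68 reached 1.81 FPKM. The 6 endothelial markers summed to between 0.280 and 1.15 FPKM, led by Vwf or Pecam1, and the skeletal muscle markers, of which Myod1 was listed in no sample, to at most 2.10 FPKM, led by Acta1. Lyz2 was called lower early and higher late, and Vwf lower early and over the whole process. Pecam1 and Acta1 were called higher late and over the whole process. The sample labels mention the removal of DRG, commonly short for dorsal root ganglia, and 7 sensory neuron markers were therefore examined. They summed to between 0.550 and 1.62 FPKM, and Scn10a did not exceed 0.01 FPKM. Snap25, their most abundant gene from day 4 on, had 3 counts in all at day 0 and 144 at day 4, a ratio of 47.1 with a 95% counting interval of 15.8 to 231, and was at 1.12 FPKM ± 0.0473 at day 4. Calca was at 0 in every day 0 and day 4 sample and between 0.150 and 0.300 FPKM at day 8. Prph had means of 0.367 FPKM at day 0 and 0.0467 FPKM at day 4, and Tubb3 of 0.307 and 0.0600 FPKM. The labels call all samples adipocytes, while Adipoq was at 0.503 FPKM ± 0.194 at day 0, against 467 FPKM ± 93.5 at day 4 and 819.8 FPKM ± 59.6 at day 8.

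For each member the genes with the most similar course were found among 9640 tested genes with a mean log2 CPM of at least 3. The members themselves were left out of these candidates, so the members were not compared with each other. The distance was the root mean square difference of log2 values over the 9 samples, each gene set to its day 0 mean. Lpl was nearest to Sh2b2 (0.084), an adaptor protein of insulin signalling, and Slc27a1 to Sepp1 (0.062), which encodes selenoprotein P. Fabp4 was nearest to Mrap (0.130), an accessory protein of the melanocortin receptors, although their fitted early changes were 8.81 and 9.81, and the distance depends on the count added before the log where day 0 levels are low. Fabp5 was nearest to Dgat1 (0.105), which makes triglyceride, and the adipogenic regulator Pparg was the third (0.169).

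The nearest genes of Cd36 and Acsl1 lay farther away. Cd36 was nearest to Gpd1 (0.461), glycerol-3-phosphate dehydrogenase, followed by Retn and Cidec, and Acsl1 to Lcn2 (0.401), which rose early by 6.27 but differed by -0.80 late. Slc27a4 was nearest to Sspn (0.051), and Sdha of the respiratory chain was the third (0.063). Acsl3 was equally near to Aldh18a1, Osbpl3 and Sgms2 (0.101), Acsl4 was nearest to Ccdc88a (0.035) and Acsl5 to Oxr1 (0.037), followed by Tead1 (0.038).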

How the data were processed

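RNA-seq was measured in 9 samples of 3T3-L1 cells, 3 each at day 0, 4 and 8, grouped by the sample titles. After removal of poor reads, the authors mapped with HISAT/Bowtie2 and ran RSEM. Each deposited file gives an expected count per gene, not normalized, and an FPKM that the authors had scaled to effective length and depth. The submitters' processing notes name Bowtie2 and CASAVA 1.4, and the genome build is not given in the sources used here. Symbols are those of the files. The RefSeq table held 19040 of the 19094 gene IDs, and 26 symbols turned into dates were restored by ID.

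Counts were rounded and fitted in edgeR 4.0.16 (R 4.3.3) with filterByExpr, TMM factors (0.954 to 1.05) and the quasi-likelihood test over all 9 samples, with Benjamini-Hochberg adjustment over 13154 genes. Shares were compared by exact permutation tests (scipy 1.17.1). On simulated data for the early phase, edgeR recovered 200 of 200 changed genes among 13154, with 1 false call. The planted changes were all of the same size, well above 2-fold, and lay only in well-counted genes. Every gene was given the same spread. The simulation therefore checks that the code runs, and cannot tell how well small changes or low-count genes are recovered in the real data. Replicates differed beyond counting noise, with a chi-square per gene of 2.40 to 10.7, so none was taken for a copy. Alternatives were other scalings, DESeq2 1.42.0, the exact test, glmTreat, limma 3.58.1 on log2(FPKM + 1) and log2(FPKM + 0.1), other filters and thresholds, a replicate block and leaving out each sample. The members and lists were chosen with earlier results of these data known. The text names all members, genes of the lists that were called or that a sentence on a list needs, and the nearest genes in course. Columns of RSEM length were deposited by the authors and were used only as given. Some genes of the lists are counted but not reported here by name.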

Additional observations from a re-analysis of the deposited data

How the results depend on the processing

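Across 23 alternative settings no called change of a member turned direction, and every member called in the early phase or whole process stayed called wherever it was tested. A filter of at least 10 counts in every sample removed Cd36. Library size alone moved the median whole-process change of all genes by -0.11. The largest shift with another scaling was -0.06, for upper-quartile normalization in the whole process.

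Counts of called genes moved with the threshold and the tool, and apart from what a threshold or filter changes by its construction the cause was not tested. In the main analysis 1285 genes were higher and 1050 lower early, 558 and 370 late, and 1356 and 1013 over the whole process. By adjusted p alone these were 4676 and 4430, 2964 and 2989, and 4583 and 4756, with 3 members lower early, 4 higher and 2 lower late, and 2 lower over the whole process. At 1.5-fold they were 2274 and 1969, 1044 and 831, and 2337 and 2182, with 2 members lower early (Acsl3 and Acsl4), 2 higher (Cd36 and Acsl3) and 1 lower (Slc27a1) late, and 2 lower over the whole process (Acsl4 and Acsl5). With limma on log2(FPKM + 1) they were 708 and 565, 224 and 136, and 753 and 528. With glmTreat 664 were lower early, 248 higher and 129 lower late, and 571 lower over the whole process. With at least 10 counts in every sample 831 were higher early, and 310 higher and 173 lower late.

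The replicate numbers were checked for pairing. Over 9 pairs of same-numbered samples the correlation of deviations from the day means lay between -0.035 and 0.075, none over 0.1, and the numbers were therefore not taken to pair the samples. The mean was 0.0307 for the same number and -0.0154 for other numbers. Deviations from a day mean cancel out within the day, so the second mean largely follows from the first. A sample's best match carried its own number in 12 of 18 comparisons, which reuse the same correlations in both directions and are not independent. Whether same-numbered samples share a factor was not tested. With the replicate block 1287 genes were higher and 1053 lower early, 556 and 367 late, and 1360 and 1010 over the whole process, and 6, 0 and 5 members were higher. Fabp5 then passed the adjusted threshold late (0.15, adjusted p = 0.0319). At this depth some genes were near, at or below the floor of 3 counts at day 0. They include Cd36, the list genes Apoc2, Apoc3, Angptl8, Acsm5, Acss3 and Gpihbp1, and markers such as Lep, Snap25 and Plin1.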

Other observations

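A few genes of the lists are added here, picked after their values were seen. Furin, a protease that cuts lipoprotein lipase and its inhibitors, was at 35.7 FPKM ± 1.26 (SD, n = 3) before induction, 55.3 FPKM ± 3.18 at day 4 and 33.1 FPKM ± 1.31 at the end. It rose by 0.69 (SE 0.06, adjusted p = 1.1e-08 in edgeR's quasi-likelihood test) and fell by 0.69 (SE 0.06, adjusted p = 4.4e-08). Slc27a3, another member of the transport protein family, went the other way, from 4.14 FPKM ± 0.418 to 2.26 FPKM ± 0.155 and 3.17 FPKM ± 0.290, an early fall by 0.80 (SE 0.12, adjusted p = 1.9e-05) and a late rise of 0.53 (SE 0.12, adjusted p = 0.00241). Acbd4, an acyl-CoA binding protein of peroxisomes, rose in both phases, by 1.21 (SE 0.07, adjusted p = 8.5e-11) and 0.69 (SE 0.06, adjusted p = 8.4e-08), from 10 FPKM ± 0.375 to 22.1 FPKM ± 1.60 and 34.6 FPKM ± 0.510.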
